A study of Homo sapiens with 3 samples.

Results

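The genes described here are the replication-dependent histone genes, which lie in clusters and were formerly named HIST1H, HIST2H, HIST3H or HIST4H with the letter of their histone. A gene was a member when a probe of the arrays carried a RefSeq transcript of a gene with such a former symbol. This gave 69 genes, 67 of them protein-coding and 2 pseudogenes, measured by 79 probes, out of 25006 named genes and 58201 probes on the arrays. The set was picked because these genes were lower in U87WT than in U87Mut, so the difference between the clones is given as a description and was not tested for any of them. The members encode linker histone H1 (6 genes) and the core histones H2A (17), H2B (18), H3 (14) and H4 (14), and 56 lie on chromosome 6, 12 on chromosome 1 and 1 on chromosome 12 of GRCh38.p14.

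Core histones form the particle around which DNA is wound, and H1 binds the DNA between particles. Cells make the bulk of their histones during S phase, when each copy of newly made DNA has to be packed, and the cluster genes are the source of that supply. Most of them have no introns, and their mRNAs end in a stem-loop that is bound by SLBP in place of a poly(A) tail, although some cluster genes also give polyadenylated mRNAs. Their mRNA levels are therefore widely read beside those of other genes of S phase.

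U87 is a human glioblastoma cell line. U87WT 5 is a clone of it that stably expresses the type 1 insulin-like growth factor receptor fused to GFP (GFP-IGF1R), which the labels describe as nuclear, and U87Mut 5 is a clone with GFP-IGF1R1025x-1100x-1120x, in which 3 lysines were changed so that the receptor does not reach the nucleus. Both were selected with geneticin, and each group is 1 clone, so a difference between the receptors and a difference between any pair of clones cannot be told apart. On each of 3 arrays, the Cy5 channel held RNA of U87WT and the Cy3 channel RNA of U87Mut: 1 array after 24 h in FBS-free medium, 1 after 24 h with 50 nM IGF1, the ligand of the receptor, and 1 with IGF1 and 0.5 μM OSI906, which inhibits the receptor's kinase (another label of that array gives a higher dose). No condition was repeated and dyes were not swapped, so values of a single array have no replicate error, and dye and clone cannot be told apart.

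A level here is the normalized log2 brightness of a probe in 1 channel, and a clone ratio is the log2 level of U87WT minus that of U87Mut on the same array. Levels of different genes are not compared, since probes differ in brightness. Of the 69 members, 64 had a brightest probe that was marked well above background for both clones on every array, and 5 did not (H1-6, H4C7, H2BC1 and the pseudogenes H2AC2P and H2BP1). The SD of a single ratio, from the arrays without IGF1 and with OSI906 over 27677 bright probes, was 0.144, which holds noise and response together. All 8 markers of mesenchymal glioma cells examined were well above background on every array, VIM and CD44 among them. Of 8 markers of other cell types, CDH1, KRT5 and PECAM1 were above background on no array and CD3E and MBP on 1, while PTPRC, EPCAM and RBFOX3 were above background on all. Of these markers, limma with Benjamini-Hochberg adjustment called TNC lower in U87WT (mean ratio -0.90) and MBP higher (0.36), and their part in the results was not tested. The labels give nothing on the cell cycle of the cultures, and fewer cells in S phase and less histone RNA per cell cannot be told apart in such RNA.

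The stretches upstream of 6 members, picked by hand and not always typical of their families, are shown as examples of the elements counted below. They are the 150 bases before the annotated start from RefSeq (GRCh38.p14), 5′ to 3′ on the gene's strand, for H3C2 (chr6:26032100-26032249, minus strand), H4C13 (chr6:27873535-27873684, minus), H1-5 (chr6:27867589-27867738, minus), H2AC14 (chr6:27814778-27814927, minus), H2BC14 (chr6:27814872-27815021, plus) and H2BC12 (chr6:27146859-27147008, minus). Capitals mark 3 motifs on either strand: the CCAAT box, the letters TATAAA, and an octamer that POU2F1 is known to bind, ATTTGCAT.
H3C2: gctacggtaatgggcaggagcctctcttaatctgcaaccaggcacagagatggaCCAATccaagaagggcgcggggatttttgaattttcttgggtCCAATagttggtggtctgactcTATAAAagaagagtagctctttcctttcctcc
H4C13: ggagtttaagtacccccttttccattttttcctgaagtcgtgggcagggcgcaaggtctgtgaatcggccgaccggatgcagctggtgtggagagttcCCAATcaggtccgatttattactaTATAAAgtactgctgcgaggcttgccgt
H1-5: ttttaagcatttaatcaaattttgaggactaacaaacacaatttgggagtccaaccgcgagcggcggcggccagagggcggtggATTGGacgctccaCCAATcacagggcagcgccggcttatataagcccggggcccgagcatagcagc
H2AC14: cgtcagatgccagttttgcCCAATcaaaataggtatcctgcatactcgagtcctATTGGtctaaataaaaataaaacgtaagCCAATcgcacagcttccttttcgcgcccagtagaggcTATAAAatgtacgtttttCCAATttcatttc
H2BC14: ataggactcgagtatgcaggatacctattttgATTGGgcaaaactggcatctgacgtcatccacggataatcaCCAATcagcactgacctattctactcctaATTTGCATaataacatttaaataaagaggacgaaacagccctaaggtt
H2BC12: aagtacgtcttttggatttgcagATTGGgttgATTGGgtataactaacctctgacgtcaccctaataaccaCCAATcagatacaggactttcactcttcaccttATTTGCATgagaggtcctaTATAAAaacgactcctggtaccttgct

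H2AC14 and H2BC14 are neighbors that point away from each other, and 56 bases of their stretches are the same DNA read from opposite strands. In the 250 bases upstream of the 62 members matched in the RefSeq table, CCAAT was present on either strand in 53 (85.5%), TATAAA in 42 (67.7%) and ATTTGCAT in 25 (40.3%). Over all 27305 promoters of the table these shares were 33.0%, 11.1% and 1.66%. The octamer was found in 11 of 15 H2A and 13 of 17 H2B promoters, in 1 of 12 H3 promoters, and in 0 of 12 H4 and 0 of 6 H1 promoters. Windows of neighbors that point away from each other can overlap, so 1 element can count for both genes. The octamer of H2BC14 also lies in the 250 bases upstream of H2AC14, whose printed stretch has none. CCAAT was found in every promoter searched of H1, H2A, H2B and H3, and in 3 of 12 of H4. The letters describe these windows, no binding was measured, and a link between these elements and the clone ratio was not tested.

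The cluster genes were lower in U87WT as a group, but not evenly. The median clone ratio of the 69 members was -0.47 in FBS-free medium, -0.75 with IGF1 alone and -0.37 with IGF1 and OSI906, while the median of all named genes was 0.00, 0.01 and 0.00. A ratio below -0.5 was seen for 34 members in FBS-free medium (3.77% of all named genes), 38 after IGF1 (2.93%) and 33 with OSI906 (3.48%), and one above 0.5 for 2 (4.08%), 1 (4.77%) and 3 (3.6%). On all 3 arrays together, 32 members were below -0.5 (1.48% of named genes, and 2.4% of those well above background) and 1, H2BC12, was above 0.5 (1.94%). The mean of the 3 ratios ran from -1.93 for H3C15 to 0.70 for H2AC19 and was below 0 for 58 of 69 members (50.1% of named genes).

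**Figure D1:**
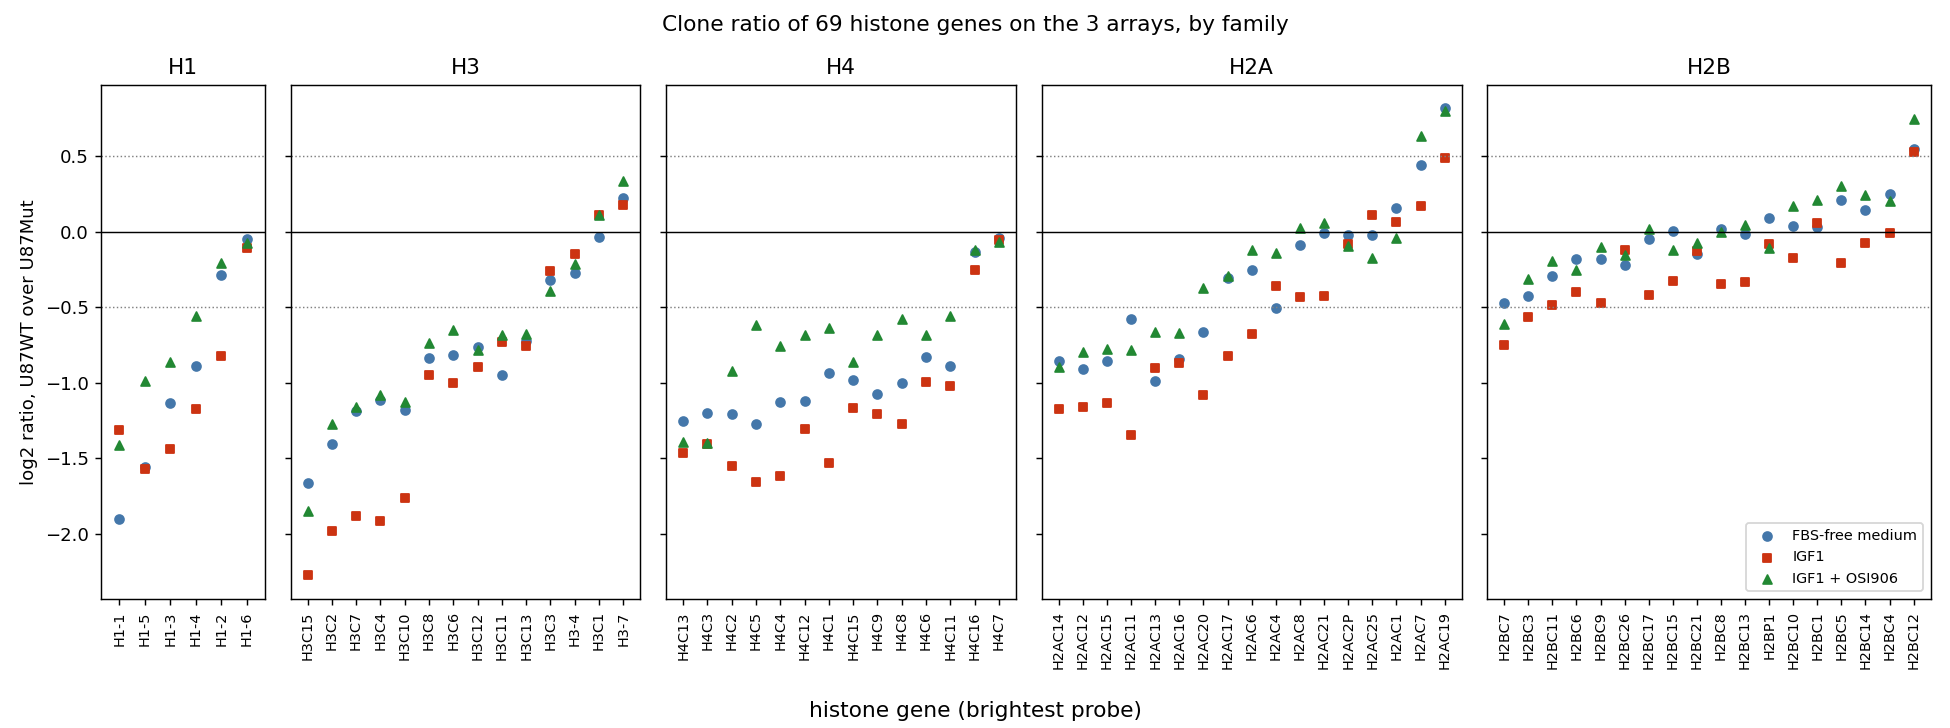
Log2 ratio of U87WT over U87Mut (y axis) of the 69 histone genes, 1 column per gene and 1 symbol per array, with panels by histone and genes ordered by mean ratio; dotted lines lie at -0.5 and 0.5. The H4, H3 and H1 panels lie mostly below -0.5 on all arrays, whereas the 18 H2B genes sit around 0.

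The division ran along the histone encoded. For H4, 12 of 14 genes were below -0.5 on all arrays and the median of the mean ratios was -1.02. For H3 these values were 10 of 14 and -0.82, and for H1 they were 4 of 6 and -1.01. H2A was split, with 6 of 17 genes below -0.5 on all arrays and a median of -0.35. None of the 18 H2B genes was below -0.5 on all arrays, and their median was -0.11. Under other processing the count of H2B genes was 2 with the scanner software's signals and 1 with the median in place of loess, and the counts of H3 and H2A genes were 8 and 4 with all spots in the background fit. Since the members were chosen on this contrast, these differences between families are a description without a test.

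Among the H3 genes, which encode the core histone whose tail carries many of the known modifications, H3C15 of chromosome 1 had the lowest ratio of all members. Its level in U87WT was 10.58 in FBS-free medium, 9.90 with IGF1 alone and 9.86 with IGF1 and OSI906, and its level in U87Mut was 12.24, 12.17 and 11.71; values below keep this order of arrays. The ratios were -1.66, -2.27 and -1.85, a mean 3.81 times higher in U87Mut. H3C2 followed, with ratios of -1.41, -1.98 and -1.28 from levels of 9.79, 9.22 and 9.97 in U87WT and 11.19, 11.20 and 11.24 in U87Mut. H3C7 (-1.18, -1.88 and -1.16) and H3C4 (-1.11, -1.92 and -1.08) had the same shape. In these 4 genes every level of U87WT was below every level of U87Mut. The members were picked on this contrast. The share of named genes with such separation was not counted, here or for the genes below.

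The remaining H3 genes were not all low. H3C3 had ratios of -0.32, -0.26 and -0.39, and H3C1 of -0.03, 0.11 and 0.11. H3-4, the gene of chromosome 1 that encodes a testis histone, had levels of 13.62, 13.75 and 13.66 in U87WT and 13.90, 13.90 and 13.88 in U87Mut, ratios of -0.27, -0.15 and -0.22. H3-7, annotated as a histone gene of the chromosome 1 cluster and formerly as a pseudogene, was on the other side with 0.22, 0.18 and 0.33. Its second probe, well above background on every array, gave -0.20, 0.11 and -0.13, so its side depends on the probe. H3C8, which encodes the same kind of core histone, had ratios of -0.84, -0.95 and -0.74.

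The H4 genes, which encode the partner of H3 in the core tetramer, had a mean ratio below 0 in 14 of 14 cases (50.1% of named genes). H4C3 had levels of 13.45, 13.13 and 13.12 in U87WT and 14.65, 14.54 and 14.51 in U87Mut, so that all levels of U87WT were below all those of U87Mut, with ratios of -1.20, -1.41 and -1.40. H4C13 had ratios of -1.25, -1.46 and -1.39 with levels of 10.80, 10.74 and 10.62 against 12.06, 12.21 and 12.01. The genes H4C2 (-1.21, -1.55 and -0.92), H4C4 (-1.13, -1.62 and -0.76), H4C1 (-0.93, -1.53 and -0.64) and H4C5 (-1.27, -1.66 and -0.61) moved further between arrays. For H4C1 this depends on the probe, since its second probe, well above background on every array, gave -0.45, -0.55 and -0.50. The 2 H4 genes that were not below -0.5 were H4C16 of chromosome 12 (-0.14, -0.26 and -0.12) and H4C7, which was not well above background on any array.

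Of the H1 genes, H1-1 and H1-5 were among the 6 lowest members. H1-1 had levels of 8.57, 8.15 and 7.86 in U87WT and 10.47, 9.47 and 9.28 in U87Mut, and ratios of -1.90, -1.32 and -1.41. H1-5 had levels of 7.90, 7.46 and 7.66 against 9.45, 9.03 and 8.65, and ratios of -1.56, -1.57 and -0.99. Both clones went down from FBS-free medium to the treated arrays in these genes, without overlap of the clones' levels. H1-2, whose mRNA is also known in a polyadenylated form, had smaller ratios of -0.29, -0.83 and -0.20.

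**Figure D2:**
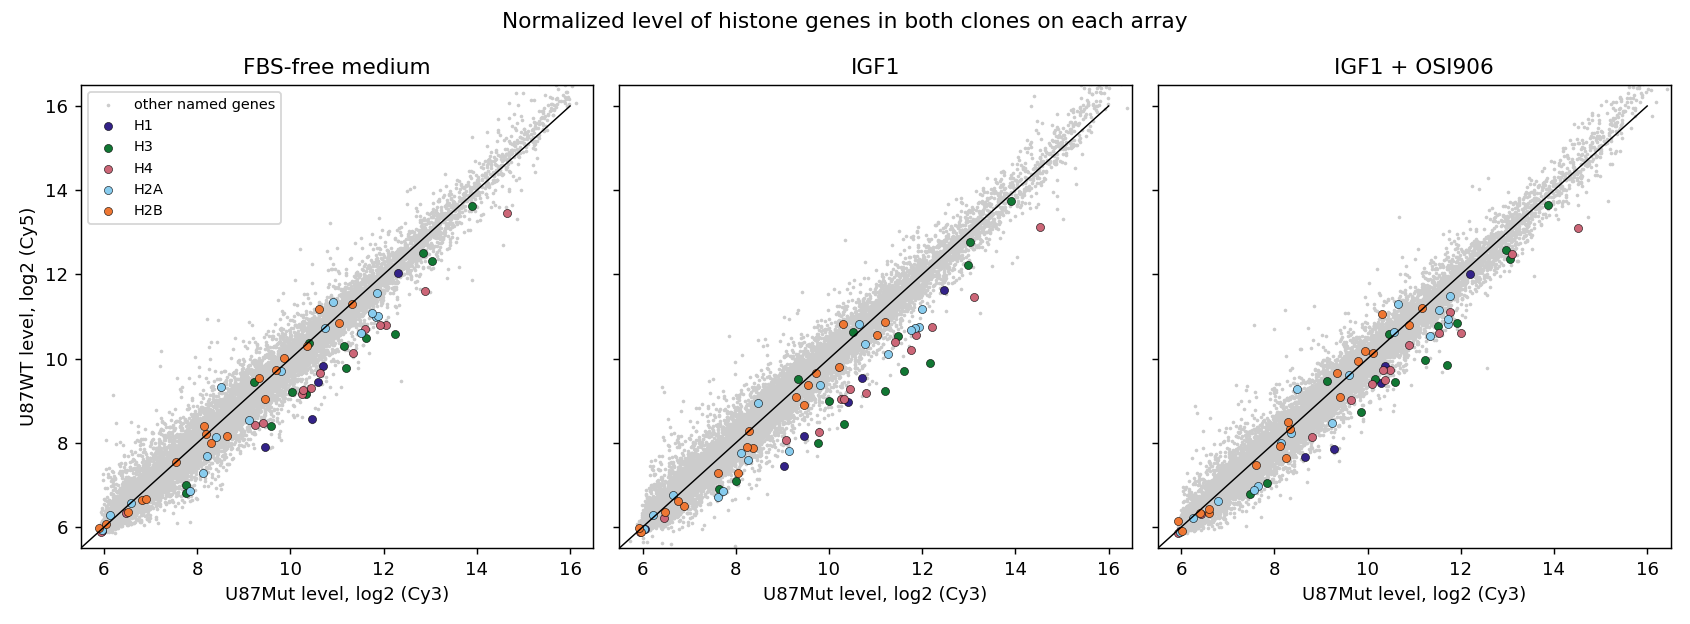
Normalized log2 level of each histone gene in U87WT (y axis, Cy5) against U87Mut (x axis, Cy3) on each array, colored by histone, over the named genes well above background in gray; the line marks equal levels. H3, H4 and H1 genes lie under the line at low and at high levels, and most H2B genes lie near it.

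The highest ratios belonged to H2A and H2B genes, which encode the dimer partners of the core particle. H2AC19 had levels of 9.32, 8.96 and 9.28 in U87WT and 8.51, 8.47 and 8.48 in U87Mut, and ratios of 0.82, 0.48 and 0.80. H2BC12 had levels of 11.17, 10.82 and 11.06 against 10.62, 10.29 and 10.31, and ratios of 0.55, 0.53 and 0.74. In both genes every level of U87WT was above every level of U87Mut.

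H2AC7 had ratios of 0.44, 0.17 and 0.63, H2BC4 of 0.25, -0.01 and 0.20, and H2BC14 of 0.14, -0.08 and 0.24. H2AC17 had ratios of -0.30, -0.82 and -0.29 and H2BC13 of -0.01, -0.33 and 0.05. The second probe of H2AC17, well above background on every array, gave -0.75, -1.01 and -0.78. The lowest H2B gene was H2BC7, at -0.47, -0.75 and -0.61. The lowest H2A gene was H2AC14, at -0.85, -1.18 and -0.89, next to H2BC14 on chromosome 6.

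H2A and H2B genes often stand side by side, and the RefSeq order held 13 such neighbor pairs among the members, with 12 different H2A genes. The mean ratio of the H2A gene was below that of its H2B neighbor in 10 of 13 pairs, by a median of 0.50 (H2A minus H2B -0.50). The pair of H2AC14 and H2BC14 differed by -1.08, H2AC11 and H2BC12 by -1.51, and H2AC13 and H2BC13 by -0.75. The value for H2AC11 and H2BC12 rests on the brightest probe of H2BC12, at 0.61, where its second probe was at 0.02. Of the 10 pairs, H2AC1 and H2BC1 differed by only -0.04 and H2AC8 and H2BC8 by -0.05, and H2BC1 was not well above background on every array. The pair H2AC7 and H2BC7 went the other way, by 1.03, and H2AC25 and H2BC26 and H2AC4 and H2BC3 differed by 0.14 and 0.10.

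The division between families was seen again within the blocks of chromosome 6, which are set apart by stretches without members. In the first block of 35 members the median mean ratio was -1.10 for H4 (8 genes), -0.84 for H3 (7), -0.87 for H1 (5), -0.12 for H2A (6) and -0.11 for H2B (9). In the last block of 16 it was -1.04 for H4 (3 genes), -0.81 for H3 (3), -0.85 for H2A (5) and -0.12 for H2B (4), so that H2A lay near H2B in the first and near H3 in the last. The 9 members of HIST2 on chromosome 1 included both the lowest and the highest member, and the 3 members of HIST3 lay between -0.21 and -0.03.

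Genes with more than 1 RefSeq mRNA numbered 6 (H2BC4, H2BC5, H2BC12, H3C4, H3C6 and H3-7) and had a median mean ratio of 0.12, compared with -0.71 for the 61 with 1. Of these 6, H3C4 and H3C6 were below -0.5 on every array. H2BC4, H2BC5 and H2BC12 belong to H2B, whose own median was -0.11, so the number of mRNAs and the family cannot be told apart. The second probes of H2BC12 and H3-7 had mean ratios of 0.02 and -0.08, against 0.61 and 0.24 with the brightest. Which mRNA form the probes and the labeling reaction picked up was not tested.

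A second probe was present for 10 members, and it was used to see how far a gene's value depends on the probe. The sign of the mean ratio was the same for 7 of 10, and 5 pairs differed by more than 0.5. H4C4 gave -1.17 and -1.14 with its probes, H4C13 -1.37 and -0.72, and H2BC12 0.61 and 0.02. H2BC21 changed sign, with -0.12 and 0.24. The second probe of H4C1 was at -0.45 in FBS-free medium, and those of H4C12 and H4C13 at -0.22 and -0.40 with OSI906. The second probe of H2AC17 was below -0.5 on every array, unlike its brightest. The counts of 12 H4 genes and 6 H2A genes below -0.5 on all arrays thus rest on the brightest probes. The second probe of H3C10 gave 0.03 against -1.36 and was well above background on no array. Cluster genes of 1 family are close in sequence, so probes can also take up RNA of related genes, and the members are not independent of each other.

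The ratio was lowest on the IGF1 array for 54 of the 69 members, compared with 30.6% of all named genes and 28.8% of those well above background. The levels within each clone give both sides of this. From FBS-free medium to IGF1, the level in U87WT had a median change of -0.26 over the members, was lower for 56 of 69 (49.2% of named genes) and was lower by more than 0.5 for 10 (1.76% of named genes) and higher by more than 0.5 for 0 (1.51%). In U87Mut the median change was 0.00, with 35 of 69 lower (54.8%), 2 lower by more than 0.5 (1.03%) and 0 higher (0.568%). Each of these values compares single arrays and has no replicate error, and the members' ratios of these same arrays were in view when the set was picked.

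The median change in U87WT varied with the processing. With no background correction it was -0.31, with 56 of 69 lower and 14 lower by more than 0.5, and with the scanner software's own signals it was -0.36, with 58 and 16. With the spots marked as not uniform kept in the background fit of each array (384, 572 and 5 spots), it was -0.09 against -0.04 for named genes well above background, with 43 of 69 lower (57.0% of these named genes) and 9 lower by more than 0.5, and the ratio was lowest on the IGF1 array for 45 members against 49.7% of these named genes. With the median in place of loess, the median change of the members in U87WT was -0.0008, with 35 of 69 lower (18.3% of these named genes). In U87Mut it was -0.33, with 60 of 69 lower (87.2%). The named genes themselves moved by 0.23 in U87WT and by -0.28 in U87Mut in this setting. The share of named genes past 0.5 was not counted in any of these other settings. Relative to these shifts the members were at -0.24 in U87WT and -0.06 in U87Mut, and the ratio was lowest on the IGF1 array for 9 members (7.75% of these named genes).

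The members with the largest decrease in U87WT after IGF1 were H2BC7, H3C4 and H2AC11. H2BC7 went from 8.17 to 7.29 in U87WT and from 8.64 to 8.04 in U87Mut, changes of -0.88 and -0.60. H3C4 went from 10.50 to 9.70 in U87WT and was 11.61 on both arrays in U87Mut. H2AC11 changed by -0.73 in U87WT and 0.04 in U87Mut.

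The highest changes in U87WT were small: 0.26 for H3C1, 0.26 for H3C3 and 0.24 for H3C8. These genes changed by 0.12, 0.20 and 0.35 in U87Mut, in the same direction. In U87Mut the lowest changes were those of H1-1 (-1.00), H2BC7 (-0.60) and H1-5 (-0.42), and the highest those of H4C2 (0.41), H4C1 (0.38) and H4C4 (0.36), which changed by 0.07, -0.22 and -0.13 in U87WT. H1-1 and H1-5 were thus lower with IGF1 in both clones, while the 3 H4 genes were higher with IGF1 in U87Mut and changed by 0.22 or less in size in U87WT.

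**Figure D3:**
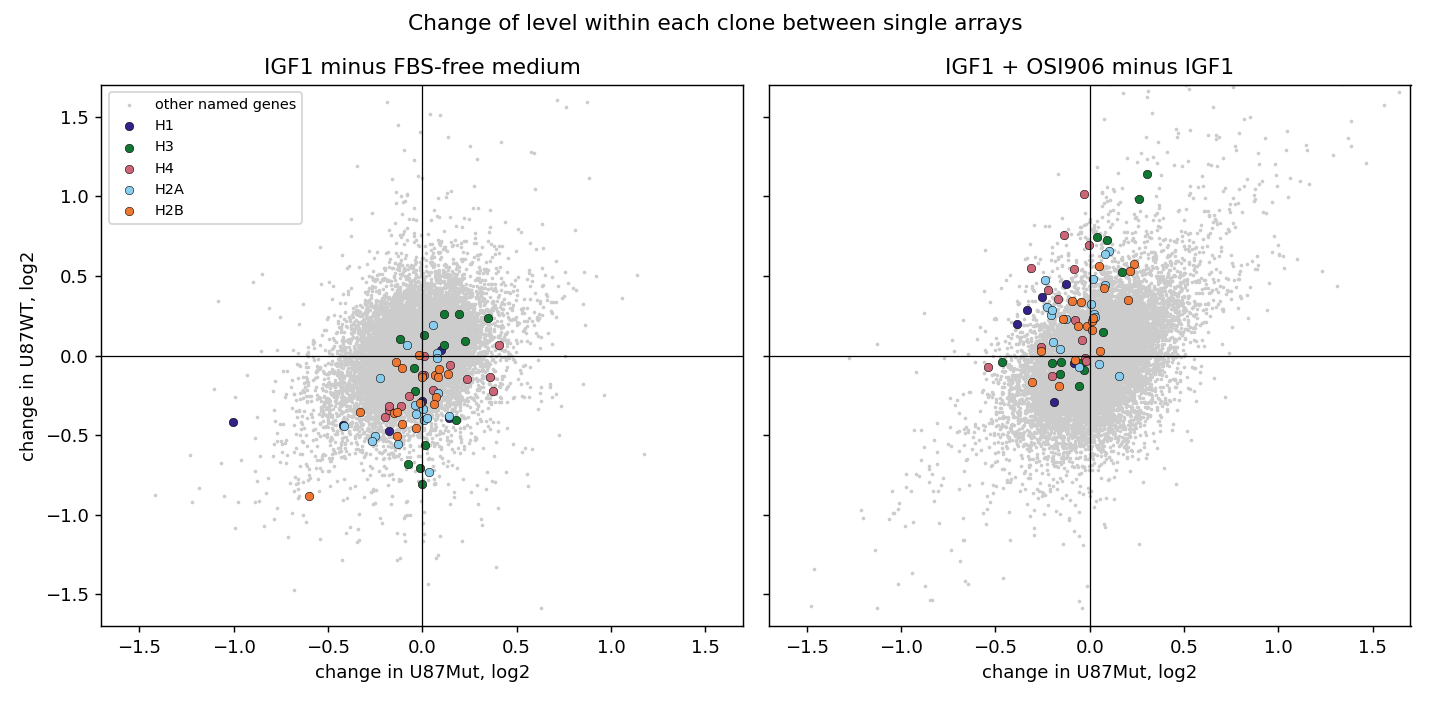
Change of log2 level in U87WT (y axis) against U87Mut (x axis) between single arrays, for IGF1 minus FBS-free medium (left) and IGF1 with OSI906 minus IGF1 (right), with histone genes colored by histone and named genes well above background in gray. Histone genes lie mostly below 0 on the y axis at left and above 0 at right, and around 0 on the x axis.

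By family, the median change of U87WT after IGF1 was -0.41 for H1, -0.37 for H2A, -0.28 for H2B, -0.18 for H4 and -0.01 for H3. Of the 14 H3 genes, 7 were lower, near the share of named genes (49.2%). Lower by more than 0.5 were 4 of them (1.76% of named genes): H3C4, H3C7, H3C15 and H3C2. H3C10 and H3C6 lay between these and 0, at -0.40 and -0.22. H2B genes, which differed least between the clones, were lower after IGF1 in U87WT in 17 of 18 cases (49.2% of named genes).

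With OSI906 added to IGF1, the level in U87WT had a median change of 0.23, with 15 members higher by more than 0.5 (2.31% of named genes) and 0 lower (2.47%). The count of 15 was 9 with all spots in the background fit, 9 with the median in place of loess and 23 with the scanner software's signals. The share of named genes past 0.5 was not counted in these settings. In U87Mut the median change was -0.06, with 0 higher (1.27%) and 1, H4C11, lower (0.644%). This comparison shares the IGF1 array with the one above, so an error of that array enters both with opposite sign. H3C4 went from 9.70 to 10.84 in U87WT and from 11.61 to 11.92 in U87Mut. The change of H3C7 was 0.98 in U87WT and 0.26 in U87Mut on the log2 scale, whereas H3C15 was at -0.04 and -0.46.

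The arrays with OSI906 and without IGF1 can be compared without the IGF1 array. Between them the median change of the members was -0.02 in U87WT, with 2 higher by more than 0.5 (1.51%) and 3 lower (1.46%), and -0.06 in U87Mut, with 0 higher (0.428%) and 5 lower (0.468%). H3C15 changed by -0.72 in U87WT and -0.54 in U87Mut, and H1-1 by -0.71 and -1.19. H3C2 changed by 0.18 and 0.05.

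Genes that act with histones were examined in lists that do not overlap the members, and for these the clone ratio was tested by limma over the 3 arrays with Benjamini-Hochberg adjustment over all probes. Of all named genes 6.65% were called lower and 6.99% higher in U87WT at an adjusted p of 0.05. The arrays differ in condition, so the response to treatment adds to the error of this test. The lists were chosen with earlier results of these data known and are not independent evidence of a direction.

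Of the S phase genes, 23 of 24 measured were called lower in U87WT and 0 higher (24 lower and 0 higher at an unadjusted p under 0.05), and 18 were below -0.5 on every array. Their median mean ratio was -1.00. CDC45, a part of the replicative helicase, had ratios of -1.97, -1.82 and -1.60 (adjusted p = 0.00334, limma), and MCM7, another part of it, of -2.02, -1.62 and -1.61 (adjusted p = 0.00407, limma). CDT1, which loads the helicase, had -1.71, -1.80 and -1.48 (adjusted p = 0.00320, limma). PCNA, the clamp that holds polymerases on DNA, had -0.93, -0.87 and -1.04 (adjusted p = 0.00357, limma). The gene that was not called was CCNE1 (adjusted p = 0.136, limma).

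The histone chaperones, which carry histones to DNA, were divided. Of 19, 8 were called lower and 0 higher, with a median of -0.28 (at an unadjusted p under 0.05, 13 were lower and 2 higher). ASF1B had ratios of -1.22, -1.17 and -1.14 (adjusted p = 0.00291, limma), and the subunits of the assembly factor CAF-1, CHAF1A and CHAF1B, means of -1.16 and -0.98 (adjusted p = 0.00483 and 0.00320, limma). These 3 place newly made H3 and H4 behind the replication fork. NASP, HJURP, HAT1, NAP1L4 and IPO4 were also called lower. DAXX and ATRX, which deposit the variant H3.3 outside replication, had means of 0.19 and 0.20 and were not called.

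The genes for transcription and 3′ end formation of histone mRNA showed less. Of 18, 2 were called lower, HINFP, which acts on H4 promoters (mean -0.23), and ERI1, a nuclease of the stem-loop (mean -0.28, adjusted p = 0.0223, limma), and 0 were called higher, with 2 higher at an unadjusted p under 0.05. The median was -0.11. SLBP, which binds the stem-loop, had ratios of -0.62, -0.19 and -0.83 and was not called (adjusted p = 0.0806, limma). NPAT, the coactivator of the cluster genes, had -0.18, 0.22 and -0.18 (adjusted p = 0.842, limma), and NCBP2 of the cap-binding complex had 0.30, 0.37 and 0.08 (adjusted p = 0.109, limma). The ratio of SLBP was nearest to 0 on the IGF1 array, which is a single array, and its relation to the cluster genes was not tested.

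Most histone variants are encoded outside the clusters, many by genes with only polyadenylated mRNAs, and most are made throughout the cell cycle. Of 11 measured, 2 were called lower, H2AX (mean -0.41, adjusted p = 0.0281, limma) and CENPA, the H3 variant of centromeres (mean -0.42, adjusted p = 0.0174, limma). H3-3A, which encodes H3.3, was called higher, with ratios of 0.34, 0.17 and 0.35 (adjusted p = 0.0396, limma), and H3-3B, which encodes the same protein, had -0.19, -0.14 and -0.21 (adjusted p = 0.0539, limma). H2AZ1 had -0.73, -0.22 and -0.30 and the linker variant H1-10 -0.22, -0.71 and -0.68, and neither was called (adjusted p = 0.111 and 0.0583, limma). The median of the list was -0.12, and 0 of its genes were below -0.5 on every array.

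These calls depend on the processing. With the scanner software's signals, and also with the median in place of loess, 0 genes of any list were called lower by limma, although 23 S phase genes had an unadjusted p under 0.05 in either case and the median ratio of that list was -1.41 and -0.94. Without the array of IGF1 with OSI906 the genes called lower were 11 S phase genes, 4 chaperones, 0 genes of histone mRNA and 0 variants, without the FBS-free array they were 17, 5, 0 and 1, and without the IGF1 array 22, 11, 4 and 2. At an unadjusted p under 0.05, 6 genes of histone mRNA and 5 variants were lower without the first of these arrays, and 4 and 5 without the FBS-free array. Over all 58201 probes, 4907 were called at an adjusted p of 0.05 with all arrays. That number was 232 without the array of IGF1 with OSI906, 1159 without the FBS-free array and 6033 without the IGF1 array. The share of named genes at an unadjusted p under 0.05 was not counted, here or for the lists above. After IGF1, the S phase list had a median change of -0.04 in U87WT and -0.05 in U87Mut, so the change of the cluster genes in U87WT was not seen in that list's median; the difference between the lists was not tested.

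**Figure D4:**
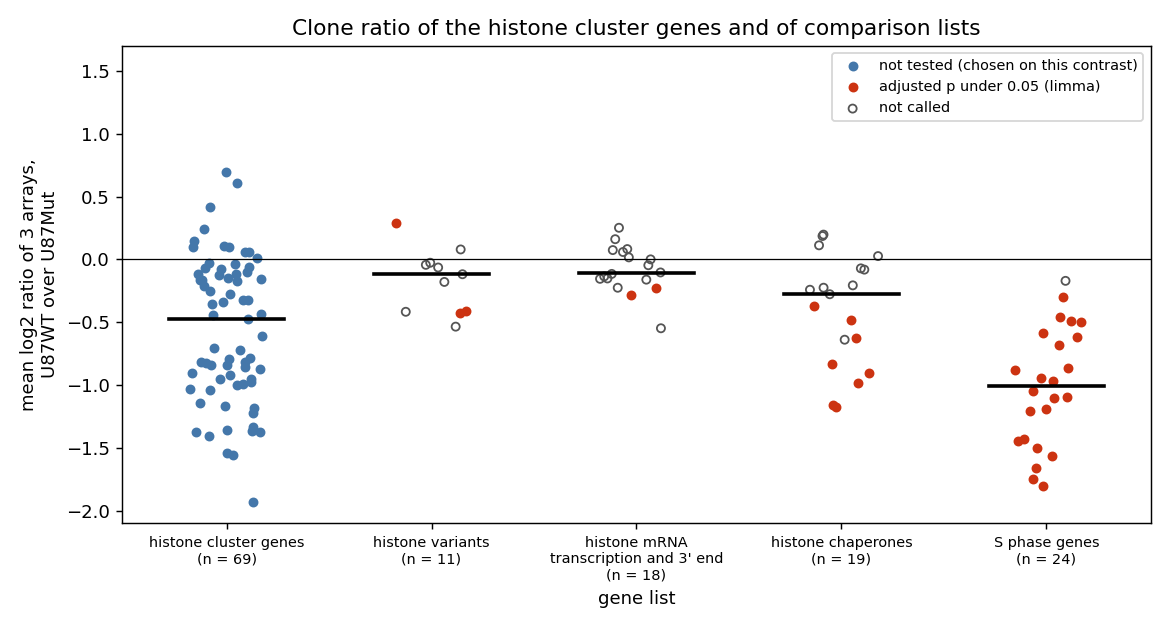
Mean log2 ratio of U87WT over U87Mut over 3 arrays (y axis) for the histone cluster genes and 4 gene lists, 1 point per gene with the median as a bar; red points were called by limma at an adjusted p of 0.05. The medians are -0.47 for the cluster genes and -1.00 for the S phase genes, and lie between -0.28 and -0.11 for the other lists.

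IGF1R, the gene that was transfected, had ratios of 0.07, 0.23 and 0.09 and was not called (adjusted p = 0.207, limma). Whether its probe lies within the transfected coding sequence was not tested, so this value does not check the labels.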

How the data were processed

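RNA of U87WT 5 and U87Mut 5 was measured on 3 two-color Agilent SurePrint G3 arrays. The authors deposited intensity values as Feature Extraction 12.0.3.1 gave them (per the file headers), with the software's processed intensities and log10 ratio of red over green, and a table of log2 ratios per probe, normalized with limma per the study's methods. The deposited log2 table correlated over named genes at 0.991, 0.649 and 0.982 (FBS-free, IGF1, IGF1 with OSI906) with the ratios used here; its direction, U87WT over U87Mut, was taken from this comparison, and its column medians were -0.00661, -0.00740 and -0.00304.

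Here the background was corrected with limma 3.58.1 (R 4.3.3, with the package data.table, version 1.17.8) by normexp with an offset of 50, fitted without spots marked as not uniform (384, 572 and 5), since they raise the fitted Cy5 background SD of the IGF1 array from 1.32 to 701. That fit was chosen with earlier results of these data known, and so were the members and gene lists. Arrays were normalized by loess within and Aquantile between, control spots and outlier spots (95, 117 and 95) were left out, and spots of a probe were averaged. Probes were named through RefSeq accessions for 34892 of 58201 probes (GRCh38.p14 annotation, whose build differs from that of the array design, so no probe position is given). The brightest probe stood for a gene. Saturated spots numbered 0, and 52.8%, 50.1% and 52.4% of probes passed the software's mark for signal over background with both dyes. The number of arrays limits the precision.

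Named are the 6 lowest and 6 highest members by mean ratio, the brightest of each family, in each clone the 3 highest and 3 lowest by IGF1, the 3 largest of each list, and SLBP, NPAT, H2AZ1, H3-3A, H3-3B, PCNA and IGF1R; other genes were named after their values were seen. A planned split by exon number was replaced by the number of RefSeq mRNAs, since the annotation used gives no exons. The limma test used an intercept only over the 3 arrays and was tested on simulated data. Alternatives were all spots in the fit, no background correction, the scanner software's signals, median in place of loess, quantile normalization, the mean of probes, bright probes only, the deposited table, a limit of 1, and leaving out each array.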

Additional observations from a re-analysis of the deposited data

How the results depend on the processing

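Of 117 values recomputed under the alternatives, 80 kept their side of the threshold or lay within the spread or within 1.5 times the count, and none changed sign past a threshold. The median ratio of the members was -0.79 with the scanner software's signals and -0.71 over bright probes only, against -0.47. With a limit of 1, 8 members were lower on all arrays (32 with 0.5), 0 were lower after IGF1 in U87WT and 1 in U87Mut, and 2 were higher with OSI906 in U87WT. With all spots in the background fit, 1 member was lower after IGF1 in U87Mut and 9 were higher with OSI906 in U87WT. With the scanner software's signals 16 were lower after IGF1 in U87WT and 4 in U87Mut, and 23 were higher with OSI906 in U87WT and 2 in U87Mut. With the median in place of loess 1 was lower after IGF1 in U87WT and 11 in U87Mut, where the median change was -0.33, and 9 were higher with OSI906 in U87WT. In that setting the named genes well above background had a median change of -0.28 after IGF1 in U87Mut, and 87.2% were below 0. The share of named genes past 0.5 or 1 was not counted under these alternatives, so these counts have no rate beside them.

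In the limma test, genes called lower among S phase genes, chaperones, genes of histone mRNA and variants numbered 10, 5, 1 and 0 with all spots in the fit and 0, 0, 0 and 0 both with the scanner software's signals and with the median in place of loess, where 0 of all probes were called. At an unadjusted p under 0.05 they numbered 22, 10, 7 and 3 with all spots, 23, 11, 3 and 3 with the scanner software's signals, and 23, 6, 0 and 2 with the median. Without background correction 1 gene of histone mRNA was called lower. Leaving out each array in turn gave 32 to 33 members lower on the remaining arrays and a median ratio of -0.56 to -0.37. It gave 11 to 22 S phase genes called lower, 4 to 11 chaperones, 0 to 4 genes of histone mRNA and 0 to 2 variants. The lowest counts came without the array of IGF1 with OSI906, where 24, 10, 6 and 5 had an unadjusted p under 0.05. There 232 of all probes were called, against 4907 with all arrays in the main processing. With all spots in the fit, 675 were called. The share of named genes at an unadjusted p under 0.05 was not counted in any setting. The causes of these differences were not tested. The clones are paired within each array by the ratio itself.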
